A study of Mus musculus with 8 samples.

Results

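Effector regulatory T cells of the mouse deep cervical lymph node were chosen by their measured counts, as 624 of the 49060 barcodes that passed the cell filter in 5 single-cell libraries. A barcode stands for 1 captured cell, and its counts are unique molecular identifiers (UMIs), each marking 1 captured RNA molecule. To pass, a barcode needed 500 or more detected genes, with mitochondrial UMIs making up no more than 10%. A cell was then selected on at least 1 UMI over Cd3e, Cd3d and Cd3g together (the CD3 chains of the T cell receptor) and at least 1 UMI of Foxp3. It had to have no UMI of Cd8a, Cd8b1, Cd79a or Cxcr5. Finally it had to have a UMI of at least 2 of a panel of 9 genes, Tnfrsf9, Klrg1, Tigit, Pdcd1, Ccr8, Il10, Areg, Gzmb and Cxcr3. The 1624 cells that passed all but the last step are called Foxp3-gated, and the 1000 of them with fewer than 2 panel genes are called resting. The effector cells were 38.4% of the Foxp3-gated cells. Because the panel separated effector from resting cells, every contrast of the 2 sets is a description and carries no test.

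Nodes were taken at day 20 after the intracranial injection. The depleted anti-CTLA-4 library came from mice given anti-CD20 and anti-CTLA-4 antibodies and injected with GL261, a mouse glioma line. The depleted isotype library came from GL261-bearing mice given anti-CD20 and isotype IgG. The anti-CTLA-4 and isotype libraries came from GL261-bearing mice labelled WT, with B cells, given anti-CTLA-4 antibody or isotype IgG. The saline control library came from mice injected with DPBS, a buffered saline, without glioma cells, and its label names no antibody. The labels name no strain, age or sex, and no number of mice per library. Live immune cells were sorted by flow cytometry. Each group had 1 library, so no difference between groups has a replicate check, and none carries a p-value. All intervals are at the 95% level and account for counting error alone, not for the spread between mice.

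Regulatory T cells are CD4 T cells that restrain other immune cells, and the transcription factor FOXP3 defines them. Resting ones circulate through lymph nodes with the transcription factor KLF2 active. After antigen and costimulation they become effector cells, which carry receptors of the TNF receptor superfamily and coinhibitory receptors, and which use BATF, IRF4 and MAF to drive suppressive genes. CTLA-4, the target of one of the antibodies used here, is itself a surface protein of regulatory T cells that competes for B7 ligands.

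Counts per library were enough for common genes and thin for rare ones. The effector cells held 586262 to 1552193 UMIs per library in all. Their median depth was 6610.0 UMIs in depleted anti-CTLA-4, 6200.0 in depleted isotype, 5150.0 in anti-CTLA-4, 5091 in isotype and 4684.5 in saline control. Resting cells were shallower, at medians of 4138 to 4911 UMIs. The median mitochondrial share of effector cells was 2.00% in depleted anti-CTLA-4, 1.94% in depleted isotype, 1.93% in anti-CTLA-4, 0.982% in isotype and 1.65% in saline control, so the isotype library stood below the others. B cells, gated as Cd79a-positive and CD3-negative, numbered 89 barcodes in depleted anti-CTLA-4 and 58 in depleted isotype, against 5241 in anti-CTLA-4, 4760 in isotype and 4547 in saline control. Of the effector cells, 25 (4.01%) had a barcode that also occurred in another library, and no barcode was an effector cell in both.

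The label has 5 markers, Foxp3, Tnfrsf9, Klrg1, Tigit and Il10. All 5 took part in the rule, so their frequencies describe the chosen cells and cannot check the label. Tnfrsf9 (4-1BB, a costimulatory receptor, on mouse chromosome 4 at chr4:150920155-150946104 of mm10) had a UMI in 476 effector cells (76.3%). Tigit (a coinhibitory receptor, chr16:43626137-43665125) had one in 344 (55.1%). Il10, the suppressive cytokine, was seen in 62 cells (9.94%), and Klrg1, a receptor of highly differentiated lymphocytes, in 32 (5.13%). The label therefore rested on Foxp3, Tnfrsf9 and Tigit, while Klrg1 and Il10 marked a minority of the cells. Ccr8, a chemokine receptor and no marker in the label (chr9:120092133-120094906), was the second most frequent panel gene, in 367 cells (58.8%). Pdcd1 (PD-1) was seen in 235 cells, Areg (amphiregulin, a tissue repair factor) in 193, Cxcr3 (a chemokine receptor of type 1 responses) in 138 and Gzmb (granzyme B) in 11. Ctla4 and Ikzf2 (Helios), which the rule did not use, had a UMI in 588 and 570 of the 624 cells. Resting cells, which were shallower, had Ctla4 in 69.0% to 70.3% and Ikzf2 in 56.8% to 69.0% per library, so neither gene is particular to effector cells. Cd4 itself was seen in 404 (64.7%).

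**Figure D1:**
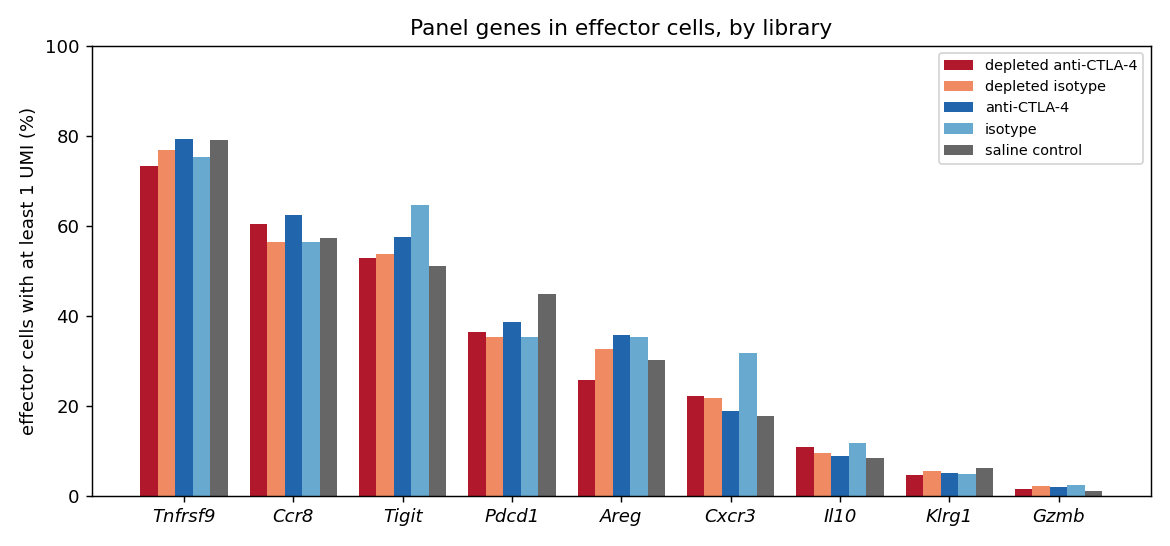
Percentage of effector cells with at least 1 UMI of each panel gene, 1 bar per library, from depleted anti-CTLA-4 at the left of each cluster to saline control at the right. Tnfrsf9, Ccr8 and Tigit were each above 50% in every library, and Il10, Klrg1 and Gzmb were below 12% in every library.

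Tnfrsf9, Ccr8 and Tigit led the panel in each of the 5 libraries. The share of effector cells with Tnfrsf9 was 73.3% in depleted anti-CTLA-4, 76.9% in depleted isotype, 79.2% in anti-CTLA-4, 75.3% in isotype and 79.2% in saline control. For Tigit it was 52.8% in depleted anti-CTLA-4, 53.7% in depleted isotype, 57.4% in anti-CTLA-4, 64.7% in isotype and 51.0% in saline control. The isotype library had the highest shares for Tigit and Cxcr3 and the saline control library the highest for Pdcd1 and Klrg1. Panel genes occurred together mainly as Tnfrsf9 with Ccr8 (291 cells, 46.6%), Tnfrsf9 with Tigit (244 cells) and Tigit with Ccr8 (181 cells). As a gauge of free RNA, Tnfrsf9 had a UMI in 0.399% to 0.572% of B-gated cells of the 3 libraries with B cells, and Foxp3 in 0.22% to 0.46%. Those B-gated cells had medians of 3583 to 3950.0 UMIs. Il10 had one in at most 0.378% of them, and Klrg1 in at most 0.022%.

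Cells of other types were looked for among the effector cells. No effector cell had an immunoglobulin heavy chain contig in the receptor libraries, 0 of 101 in anti-CTLA-4, 0 of 85 in isotype and 0 of 96 in saline control. Those counts allow shares of up to 3.59%, 4.25% and 3.77%. B-gated cells of the same libraries had such a contig in 88.1%, 85.7% and 88.8%. The 17 B cell markers summed to 507 to 661 CPM (counts per 1000000 UMIs) in effector cells and 305 to 469 CPM in resting cells, mostly from Ighm and Cd74, and Pax5 was at 0. The 17 myeloid markers summed to 107 to 125 CPM in effector cells and 76.5 to 84.6 CPM in resting cells, mostly from Cst3, with Lyz2, Itgax, Csf3r, S100a8, C1qa and C1qb at 0. The 12 NK and innate-like markers summed to 6.82 to 25.3 CPM in effector cells and 7.55 to 47.1 CPM in resting cells. The 15 markers of T follicular helper cells summed to 1146 to 1653 CPM in effector cells and 616 to 858 CPM in resting cells. Of 9 measured, Icos, Tox2, Maf and Tbc1d4 were higher in effector cells by a mean of at least 1.5-fold, and none was lower. Il21 and Sostdc1 were at 0. Whether follicular helper cells without a Cxcr5 UMI were among the effector cells was not tested. Scrublet, a doublet caller, put 30 effector cells (4.81%) among the highest-scored barcodes.

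The share of Foxp3-gated cells that were effector cells lay between 34.2% and 42.9% in the 5 libraries. It was 42.1% (37.6 to 46.8) in depleted anti-CTLA-4, 35.2% (30.6 to 40.0) in depleted isotype, 34.2% (28.8 to 40.0) in anti-CTLA-4, 37.9% (31.6 to 44.6) in isotype and 42.9% (36.3 to 49.6) in saline control. In cells these were 195 of 463, 147 of 418, 101 of 295, 85 of 224 and 96 of 224. The 2 highest shares belonged to saline control and depleted anti-CTLA-4, and the lowest to anti-CTLA-4, and the intervals of all 5 overlapped. Over all CD4-gated T cells the effector share was 6.84% in depleted anti-CTLA-4, 5.25% in depleted isotype, 6.12% in anti-CTLA-4, 6.56% in isotype and 6.69% in saline control. Over all T cells it was 2.27% in depleted anti-CTLA-4, 1.72% in depleted isotype, 1.98% in anti-CTLA-4, 2.14% in isotype and 2.21% in saline control.

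After B cell depletion, anti-CTLA-4 went with a share 1.20 times (95% interval 1.01 to 1.42) that of isotype, 42.1% in depleted anti-CTLA-4 and 35.2% in depleted isotype. With B cells present it went with 0.902 times (0.717 to 1.14), 34.2% in anti-CTLA-4 and 37.9% in isotype. Depletion went with 1.23 times (1.02 to 1.49) under anti-CTLA-4 and 0.927 times (0.750 to 1.15) under isotype. Isotype against saline control gave 0.885 times (0.707 to 1.11), 37.9% in isotype and 42.9% in saline control. When every cell was thinned to 3000 UMIs and shallower cells were left out, the shares were 29.1% (23.9 to 34.7) in depleted anti-CTLA-4, 26.7% (21.6 to 32.2) in depleted isotype, 23.9% (18.0 to 30.7) in anti-CTLA-4, 33.8% (26.2 to 42.0) in isotype and 33.6% (26.0 to 41.7) in saline control. Thinned, depleted anti-CTLA-4 over depleted isotype was 1.09 (0.837 to 1.42) and over anti-CTLA-4 1.21 (0.889 to 1.66), so both intervals then held 1. With at least 3 panel genes asked for, the same 2 ratios were 1.10 (0.849 to 1.43) and 1.10 (0.823 to 1.47). Without Pdcd1 in the panel they were 1.14 (0.946 to 1.36) and 1.16 (0.944 to 1.42), so these intervals held 1 too. Thinned, anti-CTLA-4 over isotype was 0.709 (0.504 to 0.996). Isotype over saline control was 1.01 thinned, on the other side of 1, and isotype and saline control then had the 2 highest shares. Thinned shares rested on 148 to 289 cells per library.

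**Figure D2:**
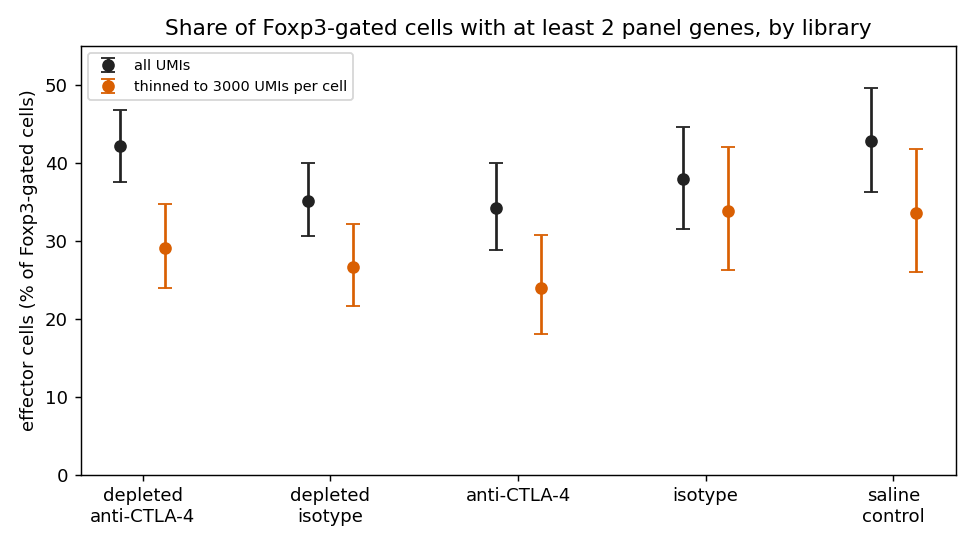
Effector cells as a percentage of Foxp3-gated cells in each library, with 95% exact binomial intervals, for all UMIs (black) and for cells thinned to 3000 UMIs (orange). The shares with all UMIs lie between 34.2% and 42.9%, and the thinned ones between 23.9% and 33.8%.

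Effector cells differed from resting Foxp3-gated cells of the same library in genes of proliferation, activation and quiescence. Of 8071 genes with at least 100 UMIs, 10.9% were higher and 4.25% lower in effector cells by a mean of at least 1.5-fold with the same direction in 5 of 5 libraries. Levels are given below as the mean ± SD over the 5 libraries (n = 5, libraries of different conditions), and log2 ratios are means of the within-library ratio of effector over resting cells, with 0.5 of a count added to each side.

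Penk, which encodes the precursor of enkephalin peptides, was at 150.1 CPM in depleted anti-CTLA-4, 100.3 in depleted isotype, 111 in anti-CTLA-4, 176 in isotype and 143 in saline control. In resting cells it was at 8.08 CPM in depleted anti-CTLA-4, 16.7 in depleted isotype, 13.7 in anti-CTLA-4, 3.02 in isotype and 14.5 in saline control. The sets did not overlap, and the log2 ratio was 3.70 ± 1.19. With at least 3 panel genes asked for, it was 1.70, but cells with 2 panel genes then counted as resting. Between 20.6% and 48.8% of the Penk UMIs of a library came from 1 cell. Il1r2, the decoy receptor for interleukin-1, was at 137 CPM in depleted anti-CTLA-4, 93.6 in depleted isotype, 154 in anti-CTLA-4, 134 in isotype and 47.8 in saline control, against 7.35 to 20.2 CPM in resting cells. Its log2 ratio was 3.13 ± 0.71, and 1.76 when cells were thinned to 3000 UMIs. Thinned cells were classed anew on the UMIs they kept, so some effector cells then counted as resting. S100a6, a calcium-binding protein, was at 300.2 CPM in depleted anti-CTLA-4, 289 in depleted isotype, 336 in anti-CTLA-4, 783 in isotype and 334 in saline control, against 26.7 to 87.6 CPM in resting cells. Isotype was the highest library for S100a6 in both sets of cells. Its log2 ratio was 2.98 ± 0.39, against 2.10 thinned and 2.28 with cycling cells left out. Dusp14, a phosphatase of MAP kinases, averaged 41.5 ± 13.8 CPM in effector cells and 5.70 ± 3.44 CPM in resting cells. Gna15, a G protein subunit, averaged 32.4 ± 6.72 CPM in effector cells and 5.60 ± 3.40 CPM in resting cells, and Ptpn5, a tyrosine phosphatase, 17.9 ± 8.26 CPM in effector cells and 2.91 ± 1.71 CPM in resting cells. Bcl2a1d, a survival factor of the BCL2 family, averaged 45.1 ± 10.1 CPM in effector cells and 6.42 ± 1.89 CPM in resting cells, but it shares near-identical copies, and reads may be split between them. Its log2 ratio was 2.72 ± 0.53, and 2.05 with at least 3 panel genes asked for.

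Another 3 of the 10 highest were genes of mitosis. Bub1b, a kinase of the spindle checkpoint, averaged 20.7 ± 4.17 CPM in effector cells and 1.18 ± 1.11 CPM in resting cells. Ccnb1 (cyclin B1) averaged 21.7 ± 10.0 CPM in effector cells and 2.00 ± 1.66 CPM in resting cells, and Cdc20, an activator of the anaphase-promoting complex, 30.3 ± 21.0 CPM in effector cells and 3.62 ± 2.04 CPM in resting cells. Resting cells had no UMI of Bub1b in depleted isotype and isotype, none of Ccnb1 and Gna15 in saline control and none of Ptpn5 in depleted isotype. The log2 ratios of those genes therefore depend on the added 0.5 of a count.

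The genes lower in effector cells included markers of the resting state. Ly6c1, a surface protein of the Ly6 family with a near-identical neighbour, was at 21.9 CPM in depleted anti-CTLA-4, 11.1 in depleted isotype, 0 in anti-CTLA-4, 3.20 in isotype and 17.1 in saline control. Resting cells had it at 118 CPM in depleted anti-CTLA-4, 134 in depleted isotype, 104 in anti-CTLA-4, 159 in isotype and 125 in saline control. Igfbp4, an insulin-like growth factor binding protein, was at 26.4 CPM in depleted anti-CTLA-4, 62.4 in depleted isotype, 12.3 in anti-CTLA-4, 19.2 in isotype and 6.82 in saline control, against 119 to 356 CPM in resting cells. Both genes were lower in effector cells of every library with no overlap. Satb1, a chromatin organizer of T cells, averaged 141 ± 34.8 CPM in effector cells and 464 ± 59.3 CPM in resting cells, with a log2 ratio of -1.74 ± 0.22. Pik3ip1, an inhibitor of PI3 kinase, averaged 15.7 ± 5.96 CPM in effector cells and 55.4 ± 11.7 CPM in resting cells. Cd7 averaged 12.7 ± 3.09 CPM in effector cells and 50.0 ± 7.89 CPM in resting cells, Sorcs2 4.32 ± 3.22 CPM in effector cells and 33.3 ± 7.14 CPM in resting cells and Gata1 5.91 ± 2.74 CPM in effector cells and 23.6 ± 6.38 CPM in resting cells. Tdrp averaged 3.53 ± 2.32 CPM in effector cells and 16.8 ± 2.05 CPM in resting cells, Dapk1 4.89 ± 4.11 CPM in effector cells and 16.8 ± 5.23 CPM in resting cells and Als2cl 10.5 ± 5.28 CPM in effector cells and 34.5 ± 3.60 CPM in resting cells. Ly6c1 had no UMI in effector cells of anti-CTLA-4, and Sorcs2 and Tdrp none in those of isotype, so their ratios depend on the added 0.5 of a count.

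**Figure D3:**
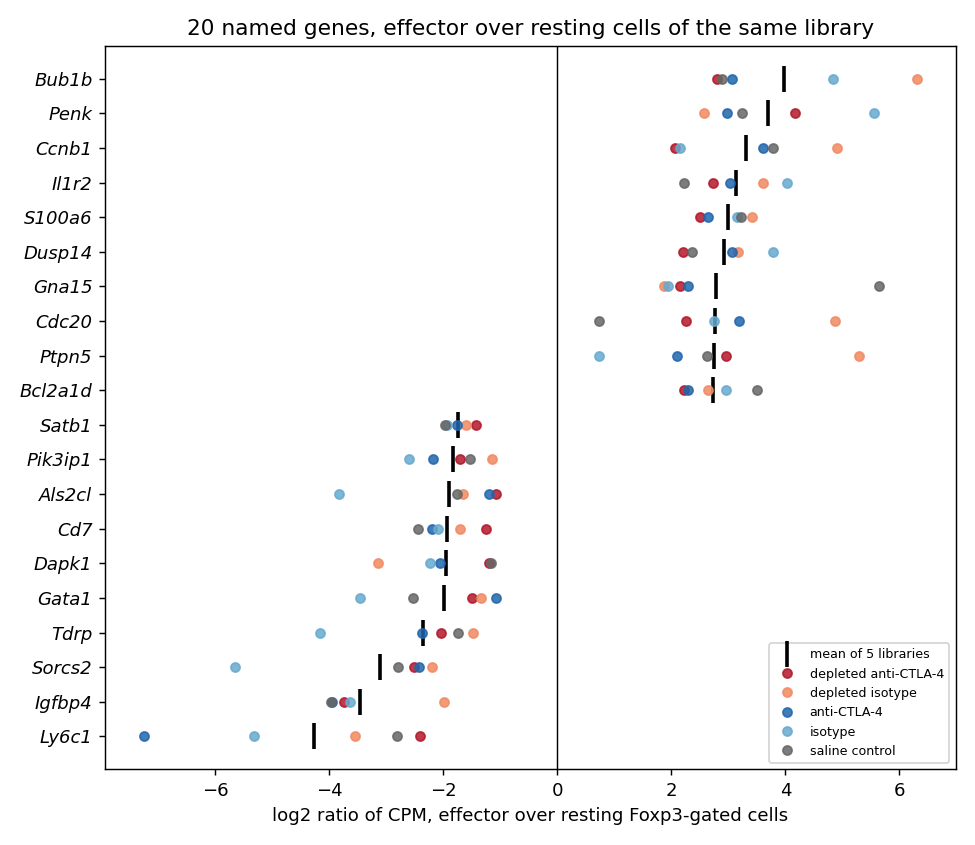
Log2 ratio of CPM, effector over resting Foxp3-gated cells, for the 20 named genes, with 1 point per library and a bar at the mean of the 5. All points of the upper 10 genes lie above 0 and all points of the lower 10 lie below 0, as the rule that named them required.

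By function, the resting T cell programme was the group lowest in effector cells, with 15 of 19 genes lower, none higher, and a median log2 ratio of -1.20, against a median of 0.09 over all genes measured. Klf2, the transcription factor of quiescence and recirculation, averaged 284 ± 64.8 CPM in effector cells and 894 ± 198 CPM in resting cells. S1pr1, the receptor for leaving the node, was at 40.9 to 64.0 CPM in effector cells and 136 to 181 CPM in resting cells. Lef1, Bach2, Foxp1, Bcl2 and Il7r were lower as well. Ccr7, the lymph node homing receptor, was not past the fold, at 618 to 865 CPM in effector cells and 678 to 824 CPM in resting cells.

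Effector transcription factors were higher, 15 of 20 genes, with a median of 1.00 and none lower. Bhlhe40 averaged 361 ± 58.4 CPM in effector cells and 88.2 ± 21.8 CPM in resting cells, Rora 222 ± 19.0 CPM in effector cells and 71.7 ± 12.8 CPM in resting cells and Maf 136 ± 44.8 CPM in effector cells and 40.1 ± 7.03 CPM in resting cells. Batf averaged 196 ± 35.8 CPM in effector cells and 88.3 ± 14.9 CPM in resting cells. Prdm1 (BLIMP-1) was also higher but scarce, at 12.9 to 30.2 CPM in effector cells and 2.28 to 6.42 CPM in resting cells. Among inhibitory and costimulatory receptors outside the panel, 7 of 14 were higher and Cd40lg was lower, with a median of 0.69. Tnfrsf4 (OX40) averaged 1056 ± 131 CPM in effector cells and 334 ± 45.2 CPM in resting cells, and Icos 344 ± 28.3 CPM in effector cells and 129 ± 25.4 CPM in resting cells. Lag3 was at 81.8 CPM in depleted anti-CTLA-4, 34.9 in depleted isotype, 59.0 in anti-CTLA-4, 88.1 in isotype and 59.7 in saline control, and averaged 14.3 ± 2.61 CPM in resting cells. Of 11 suppressive mediators 7 were higher, with a median of 0.87, among them Ctla4 at 1074 ± 163 CPM in effector cells and 608 ± 56.5 CPM in resting cells, Nt5e (CD73), Itgb8, Ebi3 and Fgl2.

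Foxp3 and Il2ra (CD25) did not follow. Foxp3 averaged 426 ± 31.2 CPM in effector cells and 502 ± 48.0 CPM in resting cells, and Il2ra 247 ± 46.0 CPM in effector cells and 309 ± 22.2 CPM in resting cells. Foxp3 took part in the gate of both sets, and resting cells were shallower. The part of depth in the Foxp3 level was not tested. The cell cycle list had a median of 2.08 with 25 of 29 genes higher, and of 16 glycolysis genes 8, with a median of 0.61. Of 23 genes of NF-kB and TNF receptor signalling 9 were higher, with a median of 0.41, and none was lower. S100, galectin and annexin genes were higher in 9 of 16, with a median of 0.93. Of 15 homing and adhesion genes 6 were higher, among them Itgb1, Itgae and the chemokine receptors Ccr2, Ccr4 and Ccr6, with a median of 0.45. Interferon response genes lay below the median of all genes. Those of interferon gamma had a median of -0.42, with 1 of 21 higher and 4 lower, and those of type I interferon -0.32, with 1 of 19 higher and 5 lower. The 20 effector cytokines were scarce, only 4 reached 100 UMIs, and Il5, Il13 and Il21 had no UMI in any effector cell.

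Several genes outside the panel differed in level with the number of panel genes per cell. At 3000 UMIs per cell, 481 Foxp3-gated cells had 0 panel genes, 273 had 1, 161 had 2, 95 had 3 and 49 had at least 4. Tnfrsf4 was at 338, 607, 936, 1302 and 1891 CPM in that order. Icos was at 143, 219, 366, 481 and 667 CPM, and Maf at 42.3, 87.9, 153, 242 and 374 CPM. The resting T cell programme ran the other way, with a summed level of 6312, 5305, 3718, 3010.5 and 1884 CPM over its 19 genes. Cells just inside the threshold, with 2 panel genes, and just outside it, with 1, thus differed from each other in the same direction as the outer classes. Foxp3 itself was level up to 3 panel genes, at 631, 646, 619 and 625 CPM, and was 769 CPM with at least 4. Every cell had to keep at least 1 Foxp3 UMI after thinning, so the gate sets a floor under these values. They cannot show how Foxp3 relates to the panel. Il2ra had no order, at 335, 408, 248, 228 and 319.7 CPM.

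**Figure D4:**
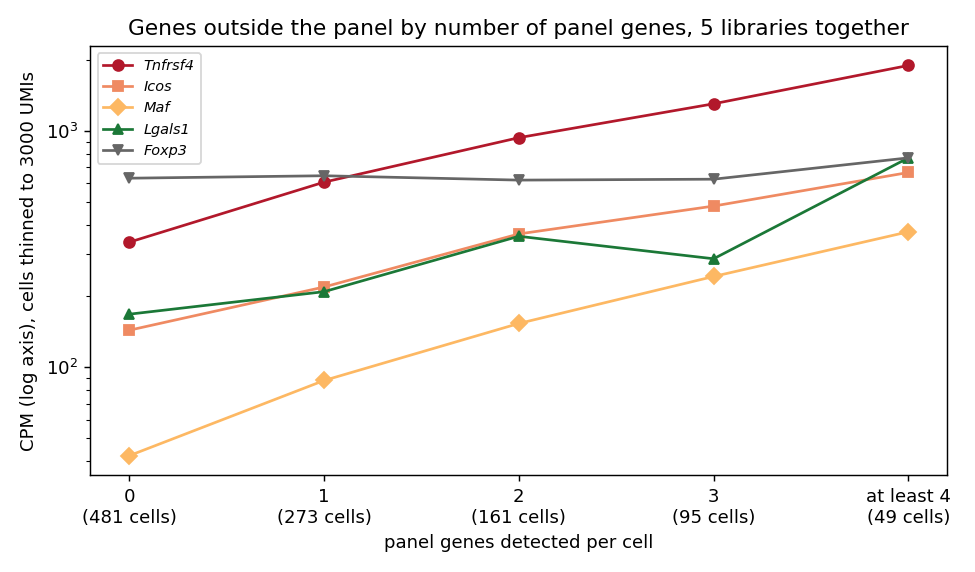
CPM of 5 genes outside the panel (log axis) in Foxp3-gated cells thinned to 3000 UMIs, by the number of panel genes detected, with the 5 libraries summed. Tnfrsf4, Icos, Maf and Lgals1 are higher in cells with at least 4 panel genes than in cells with none. Foxp3, of which the gate asked at least 1 UMI in every thinned cell, is nearly level up to 3.

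The effector cells were not uniform. Each panel gene split them into cells with and without a UMI, and the genes below had the same direction in 5 of 5 libraries. The rule asked for at least 2 panel genes, so a cell without the splitting gene had to hold at least 2 of the others. The rule itself can thus set panel genes, and genes that go with them, against each other, and the splits are descriptions only. The 344 Tigit-positive cells had S100a6 at 608 CPM, against 57.2 CPM in the 280 Tigit-negative cells, and Ccr2, a chemokine receptor of tissue entry, at 52.2 against 2.38 CPM. Igfbp4 was at 9.49 CPM in Tigit-positive and 59.1 CPM in Tigit-negative cells. Tigit-positive and Tigit-negative cells had like depth, with medians of 5698.5 and 5630.0 UMIs. The 138 Cxcr3-positive cells also had high S100a6 (885 against 178 CPM in Cxcr3-negative cells), Lgals1 (1342 against 438 CPM), Vim (1090 against 405 CPM) and Ly6a (325 against 107 CPM). They were deeper, with medians of 6904.5 and 5414 UMIs.

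The 62 Il10-positive cells carried more RNA of Maf (398 against 99.3 CPM in Il10-negative cells), which is known to activate Il10, of the ectonucleotidase Entpd1 (69.0 against 21.6 CPM), of Ly6a (508 against 132 CPM) and of Ccr2 (117 against 22.0 CPM). They had less Satb1 (41.4 against 164 CPM), Itm2a (18.4 against 114 CPM) and Srm (20.7 against 96.1 CPM). The 476 Tnfrsf9-positive cells had more Penk (156 against 36.4 CPM in Tnfrsf9-negative cells) and more Slc7a5, an amino acid transporter (44.3 against 11.8 CPM), with median depths of 6060 and 4856 UMIs. The 367 Ccr8-positive cells had more Penk as well (162 against 77.8 CPM in Ccr8-negative cells) and more Nkg7 (157 against 45.5 CPM), but less Ccr2 (15.5 against 59.2 CPM) and less Ly6a (117 against 258 CPM). Ccr8-positive cells were deeper, with medians of 6578 and 4960 UMIs. Among these chosen cells, Ccr2 was thus higher with Tigit and Il10 and lower with Ccr8. The part of the rule in this was not tested. The 235 Pdcd1-positive cells had more of cell cycle genes such as Stmn1 (329 against 88.7 CPM in Pdcd1-negative cells) and Cdc20 (57.6 against 13.4 CPM). The 193 Areg-positive cells had more Ccrl2 (88.0 against 26.9 CPM in Areg-negative cells) and Icam1 (119 against 63.3 CPM).

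Effector cells were set beside the 279 Cxcr5-positive Foxp3 cells and the 7684 conventional CD4 cells, which have no Foxp3 UMI. The Cxcr5-positive cells were not chosen by the panel, and 181 of them (64.9%, 59.0 to 70.5) had at least 2 panel genes. Their medians were 7324 UMIs in depleted anti-CTLA-4, 7219 in depleted isotype, 5610.0 in anti-CTLA-4, 6482 in isotype and 5257 in saline control, deeper than the effector cells of each library. Areg averaged 183 ± 47.2 CPM in effector cells, 63.1 ± 45.2 CPM in Cxcr5-positive Foxp3 cells and 19.3 ± 14.2 CPM in conventional cells. Il10 averaged 35.0 ± 8.27, 9.21 ± 5.58 and 1.86 ± 0.705 CPM in the same order, but both genes belong to the panel. S100a6, outside it, averaged 409 ± 210.3, 104 ± 66.3 and 40.6 ± 14.7 CPM, all SD over n = 5 libraries. Bhlhe40 averaged 361 ± 58.4 CPM in effector and 352 ± 47.5 CPM in Cxcr5-positive cells, a difference smaller than the SD over libraries. Several other genes set against resting cells were at like levels in the 2 sets. Il1r2 averaged 113 ± 42.7 CPM in effector and 128 ± 65.4 CPM in Cxcr5-positive cells. In the same order Bcl2a1d averaged 45.1 ± 10.1 and 53.8 ± 11.5 CPM, and Klf2 284 ± 64.8 and 259 ± 69.7 CPM. Mki67 averaged 141 ± 81.7 and 169 ± 47.7 CPM. Lag3 averaged 64.7 ± 21.1 and 64.2 ± 21.3 CPM, Satb1 141 ± 34.8 and 150 ± 36.5 CPM, and S1pr1 54.3 ± 8.82 and 51.3 ± 9.80 CPM. For these genes the difference from resting cells was thus not particular to effector cells. Penk averaged 136 ± 30.6 and 127 ± 205 CPM, but ran from 15.3 to 494 CPM over libraries in Cxcr5-positive cells. Not all genes were alike, since Icos averaged 344 ± 28.3 and 228 ± 78.1 CPM.

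Cell cycle genes differed between the groups within effector cells, and few cells held a large part of their UMIs. Cells with at least 2 UMIs over 10 cell cycle genes (Mki67, Top2a, Pclaf, Cdk1, Ccna2, Ccnb1, Ccnb2, Birc5, Ube2c and Nusap1) were counted as cycling. They were 27 of 195 effector cells (13.8%) in depleted anti-CTLA-4, 21 of 147 effector cells (14.3%) in depleted isotype, 12 of 101 effector cells (11.9%) in anti-CTLA-4, 8 of 85 effector cells (9.41%) in isotype and 7 of 96 effector cells (7.29%) in saline control. The exact 95% intervals were 9.33 to 19.5% in depleted anti-CTLA-4, 9.07 to 21.0% in depleted isotype, 6.29 to 19.8% in anti-CTLA-4, 4.15 to 17.7% in isotype and 2.98 to 14.4% in saline control, and all overlapped. Resting cells were cycling in 1.48% to 2.61%. At 3000 UMIs per cell, 10.7%, 9.21%, 6.67%, 2.00% and 4.00% of effector cells were cycling in the same order of libraries, against 0.478% to 1.40% of resting cells. In cells it was 9 of 84, 7 of 76, 3 of 45, 1 of 50 and 2 of 50 effector cells.

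The summed level of 30 cell cycle genes in effector cells was 4463 CPM in depleted anti-CTLA-4, 7174 in depleted isotype, 6543 in anti-CTLA-4, 4824 in isotype and 3632 in saline control. It was highest in depleted isotype and anti-CTLA-4 and lowest in saline control. In resting cells the sum was 1822 to 2301 CPM. Mki67, the marker of cycling cells, was at 115 CPM in depleted anti-CTLA-4, 228 in depleted isotype, 222 in anti-CTLA-4, 40.0 in isotype and 101 in saline control. Its UMIs came from 26, 17, 10, 5 and 9 effector cells in that order, and 1 cell held 24.2% to 67.8% of them. Top2a, the topoisomerase of chromosome segregation, was at 92.1 CPM in depleted anti-CTLA-4, 221 in depleted isotype, 176 in anti-CTLA-4, 60.8 in isotype and 71.6 in saline control. Stmn1, a regulator of microtubules, was at 129 CPM in depleted anti-CTLA-4, 320.3 in depleted isotype, 262 in anti-CTLA-4, 118 in isotype and 56.3 in saline control. Cycling cells held 60.8% in depleted anti-CTLA-4, 76.1% in depleted isotype, 69.4% in anti-CTLA-4, 67.1% in isotype and 34.9% in saline control of the UMIs of the list. The 5 cells with most cell cycle UMIs held 36.3% to 64.3% of them in each library. With cycling cells left out, the sum was 2348 CPM in depleted anti-CTLA-4, 2560.3 in depleted isotype, 2771 in anti-CTLA-4, 2254 in isotype and 2815 in saline control, a narrower range with another order. The cycling effector cells were also deeper, with medians of 9803 to 19838 UMIs, against 4537 to 6278 UMIs in the other effector cells.

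**Figure D5:**
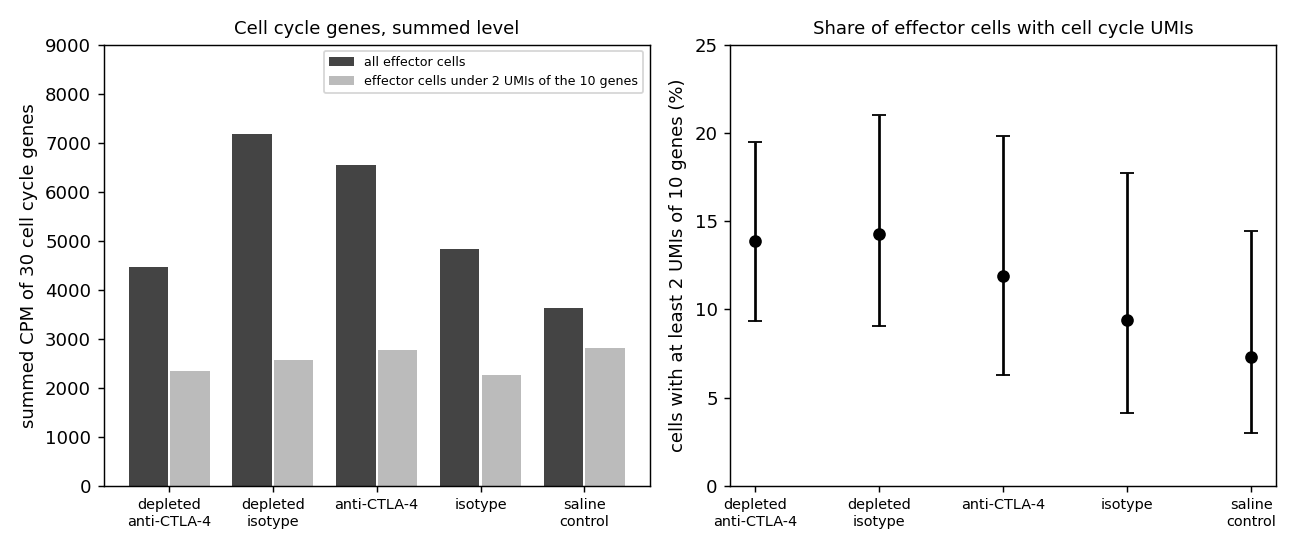
Left, summed CPM of 30 cell cycle genes in all effector cells (dark) and in those with fewer than 2 UMIs of the 10 genes (light), by library. Right, percentage of effector cells with at least 2 UMIs of the 10 genes, with exact 95% intervals. The dark bars run from 3632 to 7174 CPM and the light ones from 2254 to 2815 CPM, and the intervals at the right all overlap.

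After B cell depletion, depleted anti-CTLA-4 was compared with depleted isotype. Cell cycle genes were lower under anti-CTLA-4. The share of cycling effector cells was alike, at 27 of 195 (13.8%) in depleted anti-CTLA-4 and 21 of 147 (14.3%) in depleted isotype. Thinned, it was 10.7% and 9.21% in the same order. The cycling cells had median depths of 9803 UMIs in depleted anti-CTLA-4 and 19838 UMIs in depleted isotype. Of 4521 genes with at least 100 UMIs in effector cells, 2.12% were higher and 3.98% lower by 1.5-fold. Of 27 cell cycle genes measured, 20 were lower and none had a ratio above 1, with a median log2 ratio of -0.96, against -0.01 over all genes and 0.06 for the list in resting cells. Tuba1b (tubulin) was at 157 CPM in depleted anti-CTLA-4 and 354 CPM in depleted isotype, a ratio of 0.443 (0.378 to 0.518). Hmgb2, a chromatin protein abundant in cycling cells, was at 530.2 CPM in depleted anti-CTLA-4 and 939 CPM in depleted isotype, a ratio of 0.565 (0.517 to 0.617). Ranbp1 (nuclear transport) was at 145 CPM in depleted anti-CTLA-4 and 285 CPM in depleted isotype, a ratio of 0.509 (0.430 to 0.602), and Mcm3, a subunit of the replicative helicase, at 56.0 CPM in depleted anti-CTLA-4 and 117 CPM in depleted isotype, a ratio of 0.480 (0.365 to 0.628). With cycling cells left out, the ratio was 0.804 (0.625 to 1.04) for Tuba1b, 0.870 (0.712 to 1.06) for Hmgb2 and 0.743 (0.594 to 0.928) for Ranbp1. Thinned, the Hmgb2 ratio was 0.699 (0.513 to 0.948). With cycling cells left out, 109 of 3418 genes measured (3.19%) were past the fold, in place of 276 of 4521.

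In the same comparison 2 receptors and the early gene Egr1 were among the 4 named higher genes. Lag3, a coinhibitory receptor that binds MHC class II, was at 81.8 CPM in depleted anti-CTLA-4 and 34.9 CPM in depleted isotype, a ratio of 2.34 (1.66 to 3.35). It was seen in 62 of 195 effector cells in depleted anti-CTLA-4 and 23 of 147 in depleted isotype. Cd226, the activating receptor that shares ligands with TIGIT, was at 104 CPM in depleted anti-CTLA-4 and 46.1 CPM in depleted isotype, a ratio of 2.25 (1.67 to 3.07). Its ratio in resting cells was 1.61 (1.23 to 2.12). Egr1, an early gene of antigen signalling, had a ratio of 2.37 (1.62 to 3.54) (104 UMIs in depleted anti-CTLA-4 and 38 in depleted isotype), and its ratio in resting cells was 2.21 (1.52 to 3.26). For Egr1 and Cd226, then, resting and effector cells lay on the same side. Gsta4, a glutathione transferase, was at 74.1 CPM in depleted anti-CTLA-4 and 29.0 CPM in depleted isotype, a ratio of 2.56 (1.76 to 3.78), while its resting ratio was 0.733 (0.510 to 1.05). Of 15 inhibitory and costimulatory receptors 3 were higher, Lag3, Cd200 and Cd96, and none lower. The 15 included panel genes such as Tigit, which took part in choosing the cells. Of 23 immediate early and antigen signalling genes 1 was higher, Egr1, and 1 lower, Fosl2, with a median of 0.20.

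With B cells present, anti-CTLA-4 against isotype gave other named genes, and the isotype library was the highest or lowest of the 5 for most genes past the fold. Of 2313 genes measured, 6.14% were higher and 3.72% lower. Zbtb20, a transcription factor, was at 303 CPM in anti-CTLA-4 and 131 CPM in isotype, a ratio of 2.31 (1.79 to 3.01). Aff3 was at 391 CPM in anti-CTLA-4 and 183 CPM in isotype, a ratio of 2.14 (1.72 to 2.69) and Asap1 at 181 CPM in anti-CTLA-4 and 75.2 CPM in isotype, a ratio of 2.41 (1.71 to 3.43). Across the 5 libraries Zbtb20 was at 327 CPM in depleted anti-CTLA-4, 247 in depleted isotype, 303 in anti-CTLA-4, 131 in isotype and 264 in saline control. Aff3 was at 426 CPM in depleted anti-CTLA-4, 319.6 in depleted isotype, 391 in anti-CTLA-4, 183 in isotype and 300.2 in saline control. The isotype library was the lowest of the 5 for both. Of the 228 genes past the fold, isotype was the highest or lowest of the 5 libraries in 87.3% and anti-CTLA-4 in 51.3%. Over all 2313 genes the shares were 53.5% and 38.1%.

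Gene length moved with this. Genes higher in anti-CTLA-4 than in isotype had a median length of 78.8 kb, and genes lower 8.08 kb, against 20.5 kb over all genes measured. In isotype over saline control, genes higher had a median of 8.34 kb and genes lower 83.7 kb. In depleted isotype over isotype it was 92.5 kb for genes higher and 8.87 kb for genes lower. In both comparisons without the isotype library the medians were 31.5 to 35.5 kb for genes higher and 14.3 to 16.7 kb for genes lower. Length values were at hand for at least 90.0% of each set. The part of gene length, and of the low mitochondrial share of the isotype library, in these ratios was not tested.

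Genes lower in anti-CTLA-4 than in isotype included Cebpb, a transcription factor of inflammatory responses, at 204 CPM in anti-CTLA-4 and 397 CPM in isotype, a ratio of 0.515 (0.417 to 0.634). Its ratio in resting cells was 1.76 (1.30 to 2.41). Thinned, the Cebpb ratio was 0.809 (0.569 to 1.15). Filip1l was at 328 CPM in anti-CTLA-4 and 725 CPM in isotype, a ratio of 0.452 (0.385 to 0.530), with a like ratio in resting cells of 0.467 (0.405 to 0.537). Sap18 was at 148 CPM in anti-CTLA-4 and 339 CPM in isotype, a ratio of 0.437 (0.343 to 0.553), and AY036118 at 1541 CPM in anti-CTLA-4 and 2769.7 CPM in isotype, a ratio of 0.556 (0.516 to 0.600). The AY036118 ratio was 0.684 thinned and 0.683 with at least 3 panel genes asked for. The cell cycle list held 4 higher genes of 19 (Ube2c, Stmn1, Mki67 and Top2a) and 1 lower (Mcm3), with a median of 0.29. Of 9 interferon gamma response genes 4 were higher (Gbp6, Nlrc5, Ifi47 and Igtp) and none lower, with a median of 0.39. Gbp6 was at 50.9 CPM in depleted anti-CTLA-4, 54.3 in depleted isotype, 102 in anti-CTLA-4, 48.0 in isotype and 56.3 in saline control, so anti-CTLA-4 was the highest library for it. Ifi47 was at 102 CPM in depleted anti-CTLA-4, 93.6 in depleted isotype, 130.4 in anti-CTLA-4, 64.0 in isotype and 152 in saline control, so isotype was the lowest for that gene.

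B cell depletion under isotype gave many genes at which isotype was the extreme library. Of 3289 genes, 5.72% were higher and 3.01% lower in depleted isotype, and isotype was the highest or lowest of 5 in 84.3% of the 287 past the fold. Grap2 (an adaptor of T cell receptor signalling) was at 231 CPM in depleted isotype and 109 CPM in isotype, a ratio of 2.12 (1.63 to 2.80) and Rbl2, a pocket protein of cell cycle exit, at 87.7 CPM in depleted isotype and 35.2 CPM in isotype, a ratio of 2.49 (1.57 to 4.12). Tigit was at 161 CPM in depleted isotype and 329.8 CPM in isotype, a ratio of 0.487 (0.400 to 0.592). Thinned, the Tigit ratio was 0.667 (0.476 to 0.934). Tigit is a panel gene that took part in choosing these cells, so its level among them is a description only. Socs3, a feedback inhibitor of cytokine signalling, was at 92.2 CPM in depleted isotype and 211 CPM in isotype, a ratio of 0.436 (0.338 to 0.561), with a resting ratio of 0.466 (0.375 to 0.579). Pim3 was at 72.8 CPM in depleted isotype and 189 CPM in isotype, a ratio of 0.386 (0.292 to 0.508) and Phlda1 at 90.7 CPM in depleted isotype and 186 CPM in isotype, a ratio of 0.488 (0.376 to 0.635). Of 26 cell cycle genes 12 were higher and none lower, and the list had a median of 0.56. Of 9 suppressive mediators, Penk, Lag3 and the panel gene Areg were lower.

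Under anti-CTLA-4, B cell depletion went with lower cell cycle and S100 group genes. The share of cycling effector cells was not lower, at 13.8% in depleted anti-CTLA-4 and 11.9% in anti-CTLA-4. Thinned, it was 10.7% and 6.67% in the same order. Of 3761 genes, 2.39% were higher and 3.88% lower in depleted anti-CTLA-4. Cell cycle genes were lower in 13 of 22, with no ratio above 1 and a median log2 ratio of -0.67, while the list's median in resting cells was -0.03. Tubb5 (tubulin) was at 622 CPM in depleted anti-CTLA-4 and 1009 CPM in anti-CTLA-4, a ratio of 0.617 (0.560 to 0.680), and Hmgn2 at 308 CPM in depleted anti-CTLA-4 and 529.7 CPM in anti-CTLA-4, a ratio of 0.581 (0.507 to 0.667). With cycling cells left out, the ratio was 0.676 (0.587 to 0.780) for Tubb5 and 0.755 (0.592 to 0.967) for Hmgn2. Thinned, the Tubb5 ratio was 0.758 (0.566 to 1.02). Cxcl10, a chemokine induced by interferons, was at 41.2 CPM in depleted anti-CTLA-4 and 195 CPM in anti-CTLA-4, a ratio of 0.212 (0.155 to 0.286). It was seen in 26 effector cells in each library, of 195 in depleted anti-CTLA-4 and 101 in anti-CTLA-4, and the cell with most held 19.0% of the anti-CTLA-4 UMIs. Pcmt1 was at 47.7 CPM in depleted anti-CTLA-4 and 102 CPM in anti-CTLA-4, a ratio of 0.469 (0.336 to 0.657). Of 15 S100, galectin and annexin genes Tagln2, Vim, Anxa2 and Lgals1 were lower, with a median of -0.38. Lars2, a mitochondrial tRNA synthetase, was at 1721 CPM in depleted anti-CTLA-4 and 825 CPM in anti-CTLA-4, a ratio of 2.09 (1.91 to 2.28), and AY036118 at 2663 CPM in depleted anti-CTLA-4 and 1541 CPM in anti-CTLA-4, a ratio of 1.73 (1.62 to 1.85). Thinned, those 2 ratios were 1.38 (1.13 to 1.70) and 1.24 (1.07 to 1.44). Elk4 was at 93.4 CPM in depleted anti-CTLA-4 and 43.9 CPM in anti-CTLA-4, a ratio of 2.13 (1.44 to 3.23) and Kbtbd11 at 101 CPM in depleted anti-CTLA-4 and 50.8 CPM in anti-CTLA-4, a ratio of 1.99 (1.38 to 2.93).

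Isotype was compared with saline control, 2 groups that differ in glioma cells and possibly in isotype IgG, since the saline label names no antibody, and Socs3 had the greatest ratio of the 8 named genes. Of 2019 genes, 6.74% were higher and 6.19% lower in isotype. Socs3 was at 211 CPM in isotype and 40.9 CPM in saline control, a ratio of 5.16 (3.32 to 8.34). It was seen in 41 of 85 effector cells in isotype and 20 of 96 in saline control. Over the 5 libraries Socs3 was at 117 CPM in depleted anti-CTLA-4, 92.2 in depleted isotype, 141 in anti-CTLA-4, 211 in isotype and 40.9 in saline control, so saline control was the lowest and isotype the highest, and the 3 other glioma libraries lay between. In resting cells it was at 119.9 CPM in depleted anti-CTLA-4, 118 in depleted isotype, 141 in anti-CTLA-4, 254 in isotype and 159 in saline control, where saline control was not the lowest, and the ratio there was 1.60 (1.24 to 2.07). Rbm3, a cold-inducible RNA-binding protein, was at 1334 CPM in isotype and 709.6 CPM in saline control, a ratio of 1.88 (1.67 to 2.12), and over the libraries at 1239 CPM in depleted anti-CTLA-4, 1302 in depleted isotype, 1219.9 in anti-CTLA-4, 1334 in isotype and 709.6 in saline control. All 4 glioma libraries were thus well above saline control for Rbm3, and in resting cells its ratio was 1.43 (1.26 to 1.64). The Rbm3 ratio of effector cells was smaller when thinned, 1.51 (1.15 to 2.00), and without cells that held B cell RNA, 1.62 (1.42 to 1.84). Actg1 was at 3801 CPM in isotype and 2379.5 CPM in saline control, a ratio of 1.60 (1.49 to 1.71) and Eif1ax at 155 CPM in isotype and 73.3 CPM in saline control, a ratio of 2.12 (1.46 to 3.11). The Actg1 ratio was 1.39 thinned and 1.37 without cells that held B cell RNA.

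Lower in isotype than in saline control were Tbc1d4, a regulator of glucose transporter traffic, at 129.7 CPM in isotype and 336 CPM in saline control, a ratio of 0.386 (0.294 to 0.502), Arl15 at 59.2 CPM in isotype and 160.3 CPM in saline control, a ratio of 0.369 (0.245 to 0.546), Ankrd44 at 110.5 CPM in isotype and 263 CPM in saline control, a ratio of 0.421 (0.312 to 0.562) and Ccng1 at 68.8 CPM in isotype and 176 CPM in saline control, a ratio of 0.392 (0.268 to 0.564). Tbc1d4 was at 260.3 CPM in depleted anti-CTLA-4, 195 in depleted isotype, 279 in anti-CTLA-4, 129.7 in isotype and 336 in saline control over the libraries, so isotype was the lowest and saline control the highest. Of 12 resting programme genes 5 were lower, among them Bach2, Id3, Foxp1 and Il7r, with a median of -0.44. The cell cycle list had a median of 0.62 with 6 of 9 genes higher, and of 10 glycolysis genes 4, with a median of 0.50. Only those 9 of the 30 cell cycle genes had enough UMIs to be measured. Mki67 was among those left out and went the other way, with 25 UMIs in isotype and 59 in saline control. Cycling cells were 8 of 85 effector cells in isotype and 7 of 96 in saline control. In isotype 5 cells held 64.3% of the UMIs of the list, and in saline control 36.3%. Ikzf2 was at 1068 CPM in depleted anti-CTLA-4, 974 in depleted isotype, 1099 in anti-CTLA-4, 708 in isotype and 1069.5 in saline control, again with isotype the lowest. In 83.9% of the 261 genes past the fold isotype was the highest or lowest library of 5, and saline control was in 68.6%. The comparisons share libraries, so their values are given side by side and their overlap is not read as a result.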

How the data were processed

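Single-cell RNA libraries (10x Genomics 5' V2) of 5 groups and B cell receptor libraries of 3 were used. The authors deposited raw UMI counts of each gene in each barcode, and the file headers name Cell Ranger 7.0.1. The submitters' processing notes list bcl2fastq 2.20.0 and the build mm10. For receptors, UMI counts of assembled contigs were deposited, and only the presence of a contig was used. The annotation release is not given in the sources used here. Of 49399 deposited barcodes, 49060 passed the cell filter. Counts were summed over the cells of a class in each library and scaled to CPM by the class's own total.

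The members, panel and 20 gene lists were chosen with earlier results of these data known. With 1 library per group no test was run. Ratios between libraries have exact conditional 95% intervals, shares have exact Clopper-Pearson intervals, ratios of shares and ratios of ratios have intervals from a normal approximation on the log scale, and shares of 0 allow the upper bound printed. These cover counting error only, and reads of 1 cell are not independent. A gene was measured with at least 100 UMIs over both sides and counted as past the fold at 1.5-fold.

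Named were the panel and marker genes, the 10 highest and 10 lowest ratios of effector over resting cells with 1 direction in 5 of 5 libraries, and in each comparison the 4 highest and 4 lowest ratios, ranked by the interval bound nearest to 1. Receptor segments, mitochondrial, ribosomal, hemoglobin and Y-linked genes, Xist, gene models, possible free RNA and genes with 20% or more of the UMIs of either side in 1 cell (for effector over resting cells, over the 5 libraries together) were left out of these rankings, but not of the flagged ratios or the lists. From each list the 3 genes with most UMIs could be named as well, and other list genes were named where they passed the fold or were chosen after their values were seen. A few genes that the rule names are not reported here. Doublets were scored with Scrublet (scanpy 1.11.5), taking the top 0.8% per 1000 barcodes, and were kept. Thinning drew 3000 UMIs per cell once. Gene lengths and positions came from a table of gene starts and ends of the RefSeq annotation for GRCm38, the assembly behind mm10. Python 3.11.15, numpy 2.4.6, scipy 1.17.1 and pandas 2.3.3 were used, and the ratio calculation was checked on simulated counts.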

Additional observations from a re-analysis of the deposited data

Results flagged for a closer look

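For 3 cell cycle genes the ratio of anti-CTLA-4 over isotype within effector cells lay on opposite sides of 1 with and without B cells. The difference was not tested, since each group had 1 library, and the genes were picked because they differ. For Mki67 the ratio was 0.503 after depletion and 5.55 with B cells, a ratio of ratios of 0.0905 (0.0571 to 0.143, counting error only). For Top2a it was 0.416 after depletion and 2.89 with B cells, a ratio of ratios of 0.144 (0.0953 to 0.218). For Stmn1 it was 0.402 after depletion and 2.21 with B cells, a ratio of ratios of 0.182 (0.133 to 0.250). The 5 cells with most cell cycle UMIs held 36.3% to 64.3% of those UMIs in each library. The part of these cells in the ratios of ratios was not tested.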

How the results depend on the processing

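No paired analysis was possible because each group had 1 library. The effector share of isotype over saline control, 0.885 with an interval that held 1, was 1.01 after thinning, on the other side of 1. No other share ratio crossed 1 under the alternatives run. The intervals of depleted anti-CTLA-4 over depleted isotype and over anti-CTLA-4 lay above 1 in the main analysis. They held 1 when thinned, with at least 3 panel genes and without Pdcd1 in the panel. They stayed above 1 without doublets, with a stricter cell filter and without cells with B cell RNA. The effector share of anti-CTLA-4 over isotype moved to 0.709 after thinning to 3000 UMIs per cell. Counts of genes past 1.5-fold were smaller after thinning and with a minimum of 300 UMIs, both of which leave fewer genes to measure. Thinning gave 34 genes in depleted anti-CTLA-4 over depleted isotype, 23 in depleted anti-CTLA-4 over anti-CTLA-4, 49 in depleted isotype over isotype, 41 in anti-CTLA-4 over isotype and 38 in isotype over saline control, against 276, 236, 287, 228 and 261 in the main analysis. A minimum of 300 UMIs gave 38, 35, 62, 45 and 42 in the same order. As shares of the genes measured these were 2.46%, 2.97%, 6.22%, 7.12% and 7.69%. Main shares higher and lower were 2.12% and 3.98%, 2.39% and 3.88%, 5.72% and 3.01%, 6.14% and 3.72%, and 6.74% and 6.19%. The share was thus smaller too in each of these comparisons. Most genes past the fold in the main analysis had fewer than 300 UMIs. Thinned, the share fell in some comparisons and rose in others. For effector over resting cells the count was 545 thinned and 741 with 300 UMIs, against 1221, and 1123 to 1446 with 1 library left out. The 741 genes were 15.2% of those measured, against 10.9% higher and 4.25% lower in the main analysis. Leaving out cycling cells, an alternative chosen after seeing the data, gave 109 genes in depleted anti-CTLA-4 over depleted isotype, 242 in depleted anti-CTLA-4 over anti-CTLA-4, 230.0 in depleted isotype over isotype, 118 in anti-CTLA-4 over isotype, 114 in isotype over saline control and 904 for effector over resting cells. The cause was not tested. The counts under the other alternatives stayed within 1.5 times the main count, some higher and some lower. Named genes moved beyond the counting interval of a ratio, or beyond 1 SD over libraries for effector over resting cells, in 11 checks and not in 7 when thinned, in 7 and not in 44 with cycling cells left out, in 6 and not in 47 with at least 3 panel genes, in 4 and not in 51 without cells with B cell RNA, and in 1 and not in 58 without doublets. None of these changed direction. The minimum of 300 UMIs cannot move a gene's own ratio. Thinning and asking for at least 3 panel genes also moved cells from the effector to the resting class. Ratios of effector over resting cells in those settings thus compare other sets of cells. Effector cells numbered 85 to 195 per library, so genes with few UMIs could not be compared.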
